A study of Mus musculus with 8 samples.

Results

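The comparison described here set RORγt-deficient CD4 T cells against wildtype CD4 T cells when both received digoxin. It rested on 4 of the 8 arrays of the study, the 2 titled as digoxin-treated knockout and the 2 titled as digoxin-treated wildtype, and covered all 18193 genes that a single-gene probe set measured. The other 4 arrays held the same genotypes in DMSO, the solvent control, and were used to ask which genotype differences seen there were also present under digoxin. All cells came from C57BL/6 mice. Every group began as naive CD4 T cells isolated by flow cytometry, which were stimulated through CD3 and CD28 with plated antibodies and collected after 48 h of Th17 culture. Total RNA was hybridised to Affymetrix Mouse Genome 430 2.0 arrays. The dose of digoxin, the allele behind the deficiency, the age of the mice and whether replicate arrays came from separate mice or cultures are not given in the sources used here, so the p-values reflect only how far replicate arrays differed, and part of that may be technical.

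RORγt is a nuclear receptor that binds DNA at ROR response elements and drives the genes of Th17 cells, the T helper cells that secrete IL-17. Digoxin, a heart drug of the cardiac glycosides, blocks the Na,K-ATPase, the pump that exchanges sodium for potassium across the cell membrane, and by the title of the study it antagonises RORγt. The comparison asks which differences between cells with and without the receptor are still seen when both receive the drug.

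Deposited values were on a log2 scale on which the mean of wildtype cells in DMSO was 0 for each gene. The medians of the 8 arrays lay between -0.01 and 0.03, and the SD of the differences between the 2 arrays of a group lay between 0.18 and 0.24. The gene of RORγt itself was not analysed here, and its level was no check of the genotype labels. The 6 measured CD4 T cell markers all had a level of 8 or above on the log2 scale, as read from the numeric precision of the values. Defining markers of NK cells (5 measured) and erythroid cells (3 measured) all lay between 2 and 4, the lowest range, and no B cell, myeloid or basophil marker reached 8. No marker list of another cell type had a called member under digoxin, and their medians for the genotype difference lay between -0.05 and 0.08.

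Under digoxin, Il17a was the only gene called different between the genotypes (adjusted p under 0.05), and it was lower in RORγt-deficient cells. It encodes IL-17A, the cytokine that names the Th17 lineage. The log2 values of Il17a were -2.35 and -2.44 on the wildtype digoxin arrays and -3.87 and -4.12 on the RORγt-deficient digoxin arrays. In DMSO they were -0.02 and 0.02 in wildtype and -2.01 and -2.21 in deficient cells. The lowest values were therefore those of deficient cells in digoxin, and the 4 groups did not overlap. Wildtype cells in digoxin stood close to deficient cells in DMSO. The genotype difference under digoxin was -1.60 ± 0.12 (limma standard error, n = 2 arrays per group; 95% interval -1.87 to -1.32), which is 3.03-fold lower, at an adjusted p of 0.00299 in limma. In DMSO it was -2.11 ± 0.12, or 4.31-fold lower (adjusted p = 0.00011). These genotype differences differed by 0.51, with a 95% interval of 0.12 to 0.90, and this difference did not pass adjustment over all genes in limma. With 1 digoxin array left out at a time, the difference under digoxin lay between -1.72 and -1.47. The smallest in size, -1.47, came without the second RORγt-deficient digoxin array, and there the difference under digoxin was not called. Each of these fits leaves 1 array in a group. After quantile normalisation, which makes the most extreme values of all arrays equal, the difference under digoxin was -0.52 and not called. Il17a was the lowest or next to lowest of all genes on each digoxin array.

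**Figure D1:**
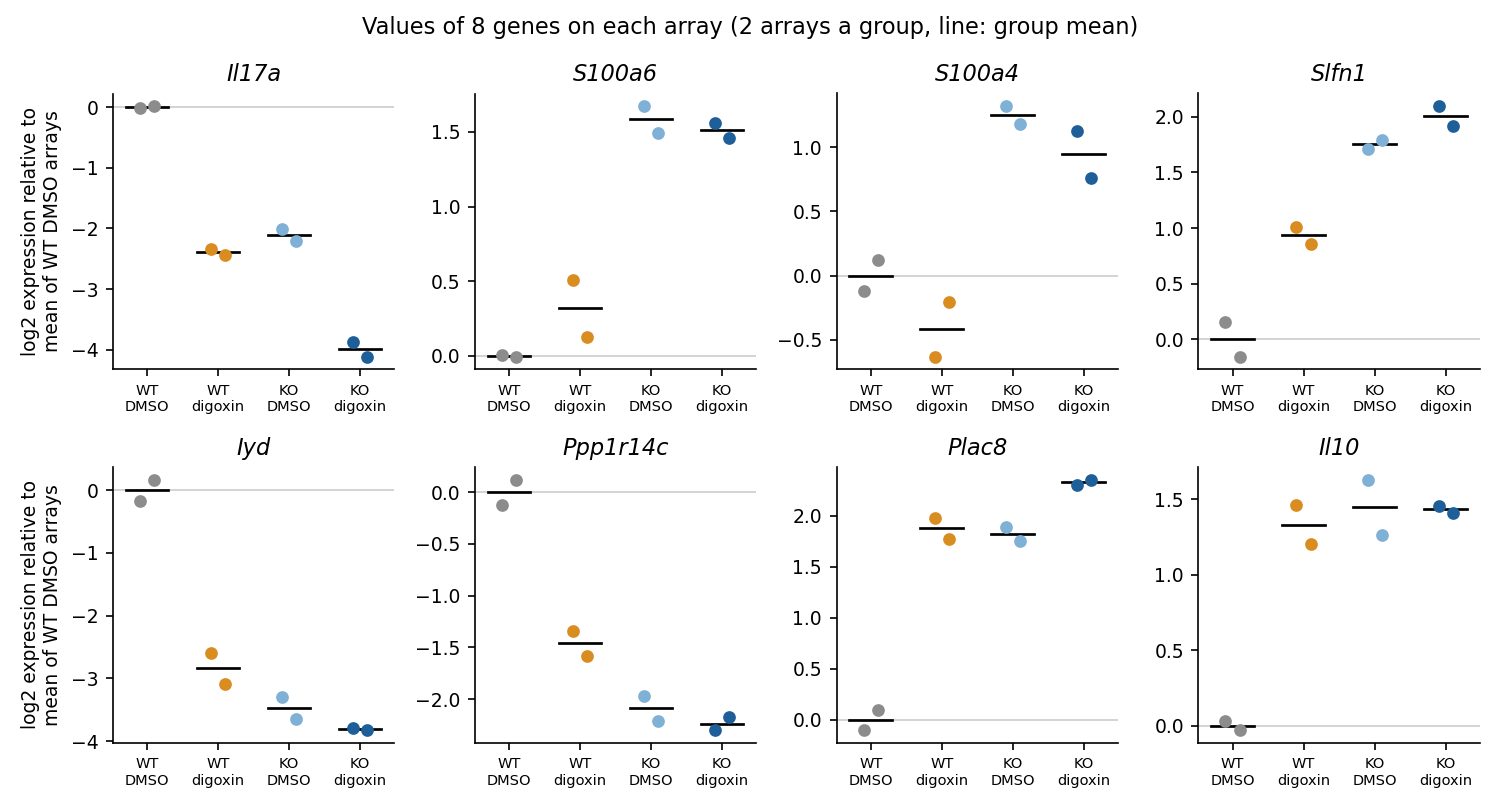
Points give the log2 value of 8 genes on each of the 8 arrays, with mean wildtype (WT) cells in DMSO at 0, in 4 groups of 2 arrays, KO being RORγt-deficient, and black lines give the group means. The digoxin groups were apart for Il17a, S100a6, S100a4 and Slfn1 in the upper row, were closer for Iyd, Ppp1r14c and Plac8 in the lower row, and overlapped for Il10.

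The promoter of Il17a is shown because it belongs to the one gene called and because its receptor binds a half-site, AGGTCA, which was searched on both strands. RefSeq places the window on GRCm38.p6 at chr1:20730655-20730954, plus strand, from 250 bases before to 50 after the start of the transcript. The half-site lies on the opposite strand with its first base 120 bases before the start, so the capitals below read TGACCT. The window of S100a4, the gene with the largest positive genotype difference under digoxin, lies at chr3:90603520-90603819, plus strand, and holds AGGTCA 24 bases before the start.
Il17a: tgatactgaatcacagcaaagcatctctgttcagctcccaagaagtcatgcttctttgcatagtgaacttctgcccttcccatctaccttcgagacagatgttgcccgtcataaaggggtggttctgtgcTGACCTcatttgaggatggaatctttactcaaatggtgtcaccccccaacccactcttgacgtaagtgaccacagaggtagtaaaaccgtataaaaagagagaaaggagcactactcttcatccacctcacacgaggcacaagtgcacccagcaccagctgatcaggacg
S100a4: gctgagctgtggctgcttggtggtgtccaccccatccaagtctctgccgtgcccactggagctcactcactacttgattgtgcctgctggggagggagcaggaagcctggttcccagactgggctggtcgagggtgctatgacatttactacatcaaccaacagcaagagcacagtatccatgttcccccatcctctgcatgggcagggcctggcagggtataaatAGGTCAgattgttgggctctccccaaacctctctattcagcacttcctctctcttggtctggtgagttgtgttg
These letters occur in 5340 of all 32851 RefSeq windows of this length, or 16.3%. Among windows of the genes measured they occur in 2582 of 18109, or 14.3%. They occur in 16 of 138 windows (11.6%) of genes called lower in deficient cells in DMSO and in 3 of 42 (7.14%) of genes called higher. A match is a description of the sequence and no evidence of binding.

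Il17a made up 0.0055% of the genes tested under digoxin, and no gene was called higher (0%). At an unadjusted p under 0.05, limma gave 1003 genes, or 5.51%, of which 506 were higher (2.78%) and 497 lower (2.73%) in deficient cells. In DMSO the same test called 191 genes (1.05%), 51 higher (0.28%) and 140 lower (0.77%), with 1879 (10.3%) at an unadjusted p under 0.05. Quantile normalisation gives all arrays the same spread over genes. Before it, the SD over genes was 0.09 on both wildtype DMSO arrays, whose mean defines 0, and 0.17 to 0.28 on the others. That step widens the wildtype DMSO arrays, so the count after it cannot decide how many DMSO calls hold. The DMSO count was 95 with only the 4 DMSO arrays in the fit and 3 after quantile normalisation. It was 47 and 17 when the first or the second wildtype DMSO array was left out, and 56 and 28 without the first or the second deficient DMSO array. The difference between the genotype differences was called for no gene in limma (0%), with 562 (3.09%) at an unadjusted p under 0.05, and 1 gene, Iyd, was called when the first wildtype digoxin array was left out.

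Most genotype differences called in DMSO had the same direction under digoxin and were smaller. Of the 191 genes, 186 had the same sign under digoxin (97.4%, against 62.5% of all genes). For 171 of them (89.5%, against 21.9% of all genes) the digoxin groups also did not overlap, and for 149 (78%, against 4.44%) the unadjusted p was under 0.05. Il17a alone was called in both. The DMSO and the digoxin difference of a gene share no array, but limma took the spread from the arrays of both. The choice of the 191 genes was therefore not independent of the digoxin arrays. With only the DMSO arrays in the fit, 95 genes were called in DMSO. Of these, 85 (89.5%) had the same sign and no overlap under digoxin. The median genotype difference of the 191 was -0.74 in DMSO and -0.41 under digoxin, and the median ratio of the digoxin to the DMSO difference was 0.559 (quartiles 0.352 and 0.694). The 191 genes were chosen by their DMSO difference against the shared spread. That choice by itself favours larger values in DMSO, so the ratio is given as a description.

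Genes lower and genes higher in deficient cells in DMSO stood at different ratios. The 140 called lower had medians of -0.85 in DMSO and -0.49 under digoxin, and the median ratio was 0.598. Of these, 138 had the same sign under digoxin (98.6%, against 60.4% of all genes lower in DMSO). Groups were apart in that direction for 130 (92.9%, against 20.8%). The 51 called higher had medians of 0.75 and 0.35 and a median ratio of 0.436. Groups were apart in that direction for 41 (80.4%, against 22.9% of all genes higher in DMSO). Whether the ratios of the higher and the lower genes differ was not tested. The 5 genes of opposite sign, named after their values were seen, were Adh4 (-0.65 in DMSO and 0.18 under digoxin), Gpr15 (0.73 and -0.12), Moxd1 (0.75 and -0.10), Pcbp3 (-0.61 and 0.03) and Ifitm1 (0.96 and 0.00). In the 50 genes with the smallest p under digoxin, 41 had been called in DMSO (1.05% of all genes). The same sign there was seen for 49 (62.5% of all genes). Both comparisons use the same spread for a gene, so a gene with a small spread can rank high in both. Across all genes the genotype differences in DMSO and under digoxin correlated with Pearson's r of 0.49 and Spearman's rho of 0.37, a description across genes, which are not independent replicates.

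**Figure D2:**
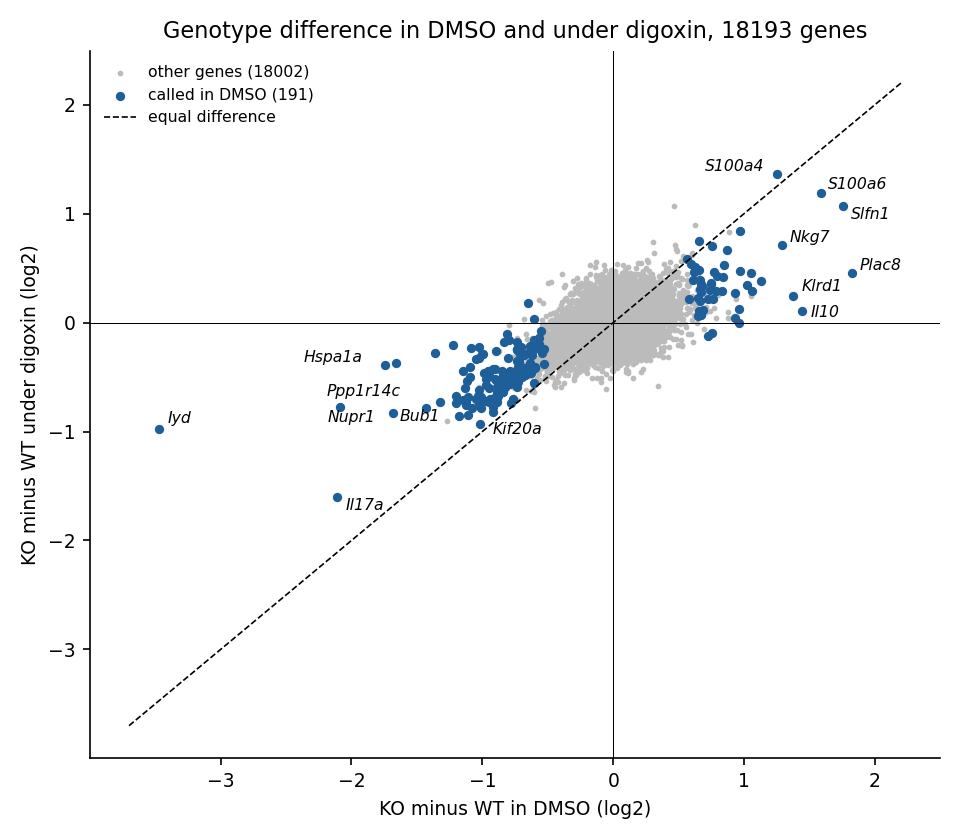
Each point is 1 of 18193 genes, with the RORγt-deficient (KO) minus wildtype (WT) difference in DMSO on the horizontal axis and under digoxin on the vertical axis, both in log2, and the dashed line marks equal differences. The 191 genes called in DMSO (blue) lie mostly between that line and the horizontal zero line, with S100a4 close to it and Iyd (-3.47 and -0.97) and Il10 (1.45 and 0.10) far from it.

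Th17 effector genes other than Il17a had no called genotype difference under digoxin. Of 13 listed, 10 were measured, and their median genotype difference was -0.18 under digoxin (0.01 after quantile normalisation) and -0.41 in DMSO, against 0.01 under digoxin over all genes. Il17a was called. Il17a and Ltb4r1 were the 2 of the 10 with an unadjusted p under 0.05 and a lower value (2.73% of all genes). Groups were apart with deficient cells lower for 5 (13.6% of all genes). Ccr6, the chemokine receptor that guides Th17 cells, had values of -0.74 and -0.96 in wildtype and -0.96 and -1.27 in deficient cells under digoxin, a difference of -0.27 ± 0.16 (95% interval -0.62 to 0.09). The higher deficient value and the lower wildtype value both came to -0.96, and all 4 lay below the wildtype DMSO arrays. Its genotype difference in DMSO was -0.71. Ltb4r1, a leukotriene receptor, stood at -0.30 ± 0.11, and Ccl20, the ligand of Ccr6, at -0.18 ± 0.14. Il21, a Th17 cytokine, stood at -0.18 ± 0.12, and its other probe set at 0.07. Furin, a proprotein convertase, was called lower in DMSO (adjusted p = 0.0252 in limma) and stood at -0.29 ± 0.17 under digoxin (adjusted p = 0.973 in limma). Csf2, the gene of GM-CSF, was at -0.52 in DMSO and at 0.06 under digoxin, and the IL-1 receptor Il1r1 was at -0.19 and 0.10.

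Genes of the other T helper fates had no called genotype difference under digoxin. Foxp3, the regulatory T cell factor, stood at -0.01 ± 0.15, and Tbx21, the Th1 factor, at 0.14 ± 0.10. The Th1 cytokine Ifng stood at 0.03 ± 0.19, the Th2 factor Gata3 at 0.08 ± 0.14 and the Th2 cytokine Il4 at 0.04 ± 0.12. Rora, which encodes the related receptor RORα, stood at 0.06 ± 0.14, and the growth cytokine Il2 at -0.02 ± 0.11 after -0.50 in DMSO. The 95% intervals of these 7 genes all included 0, and the widest, that of Ifng, ran from -0.39 to 0.44. List medians under digoxin were 0.06 for 11 Th1 genes, 0.04 for 9 Th2 genes and 0.06 for 13 regulatory T cell genes, and none held a called gene. At an unadjusted p under 0.05, 1 regulatory T cell gene was lower (2.73% of all genes) and 1 higher (2.78%). Entpd1, an ectonucleotidase of regulatory T cells, was at -0.33 (other probe sets -0.12 and 0.06) and Gpr83 at 0.26. Of 11 Th17 transcription factors, Maf was at 0.42 ± 0.18 and Ahr at -0.34 ± 0.13, with its other probe set at -0.13.

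S100a4, S100a6 and Slfn1, of the S100 and Schlafen families, were 3 of the 4 genes with the highest positive genotype differences under digoxin. The other carries a clone number as its symbol here. None of the 4 passed the adjusted threshold. S100a6, a small calcium-binding protein, had values of 0.51 and 0.12 on the wildtype digoxin arrays and 1.56 and 1.46 on the deficient digoxin arrays. Those of deficient cells in DMSO were 1.67 and 1.49, so deficient cells stood at a like level in both treatments. The genotype difference of S100a6 was 1.19 ± 0.14 under digoxin (adjusted p = 0.0618) and 1.58 in DMSO. S100a4, a calcium-binding protein linked to cell motility, had values of -0.63 and -0.20 in wildtype and 1.13 and 0.76 in deficient cells under digoxin, a difference of 1.36 ± 0.17 (adjusted p = 0.0633). In DMSO it was 1.25, and the difference of these differences was 0.11, with an interval of -0.43 to 0.66. Slfn1, a Schlafen family gene tied to T cell quiescence, had values of 1.01 and 0.85 in wildtype and 2.10 and 1.92 in deficient cells under digoxin. Its difference was 1.07 ± 0.13 (adjusted p = 0.0633), against 1.75 in DMSO. The other Slfn1 probe set, in the level range of 2 to 4, stood at -0.10 under digoxin and -0.13 in DMSO. Slfn2, another member of that family, stood at 0.67 ± 0.11 under digoxin and 0.87 in DMSO. On the probe sets used, the digoxin groups were apart for all 4 of these genes, with deficient cells higher.

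The list of these families had 11 measured members of 12, with a median of 0.14 under digoxin and 0.35 in DMSO. Of these, 5 were higher at an unadjusted p under 0.05 (2.78% of all genes) and none was lower. Groups were apart with deficient cells higher for 7 (17.4% of all genes). The list was chosen with earlier results of these data known, so its counts are only a description. S100a6 was called when the first wildtype digoxin array was left out (adjusted p = 0.0242) and with the values averaged over the probe sets of a gene (0.0364). With a variance that follows the level range of the genes, which called 25 of 18193 genes, S100a4, S100a6, Slfn1 and Slfn2 were all called.

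Other genes with the smallest p on the higher side were Glipr1 at 0.84 ± 0.11 (adjusted p = 0.0783), Nkg7, a granule protein of cytotoxic cells, at 0.71 ± 0.11 (0.118), and Dglucy at 0.70 ± 0.11. Cox6b2, a testis form of a cytochrome oxidase subunit, stood at 0.75 ± 0.12, Psrc1, a spindle protein, at 0.68 ± 0.11 and the interferon-inducible Ifi209 at 0.90 ± 0.16. Their DMSO differences were 0.97 for Glipr1, 1.29 for Nkg7, 0.75 for Dglucy, 0.66 for Cox6b2, 0.48 for Psrc1 and 0.63 for Ifi209. Other probe sets of the same genes did not always show this difference. Glipr1 stood at 0.13 on its other probe set, Ifi209 at 0.37, and Psrc1 at 0.67 and -0.13 on 2 others.

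**Figure D3:**
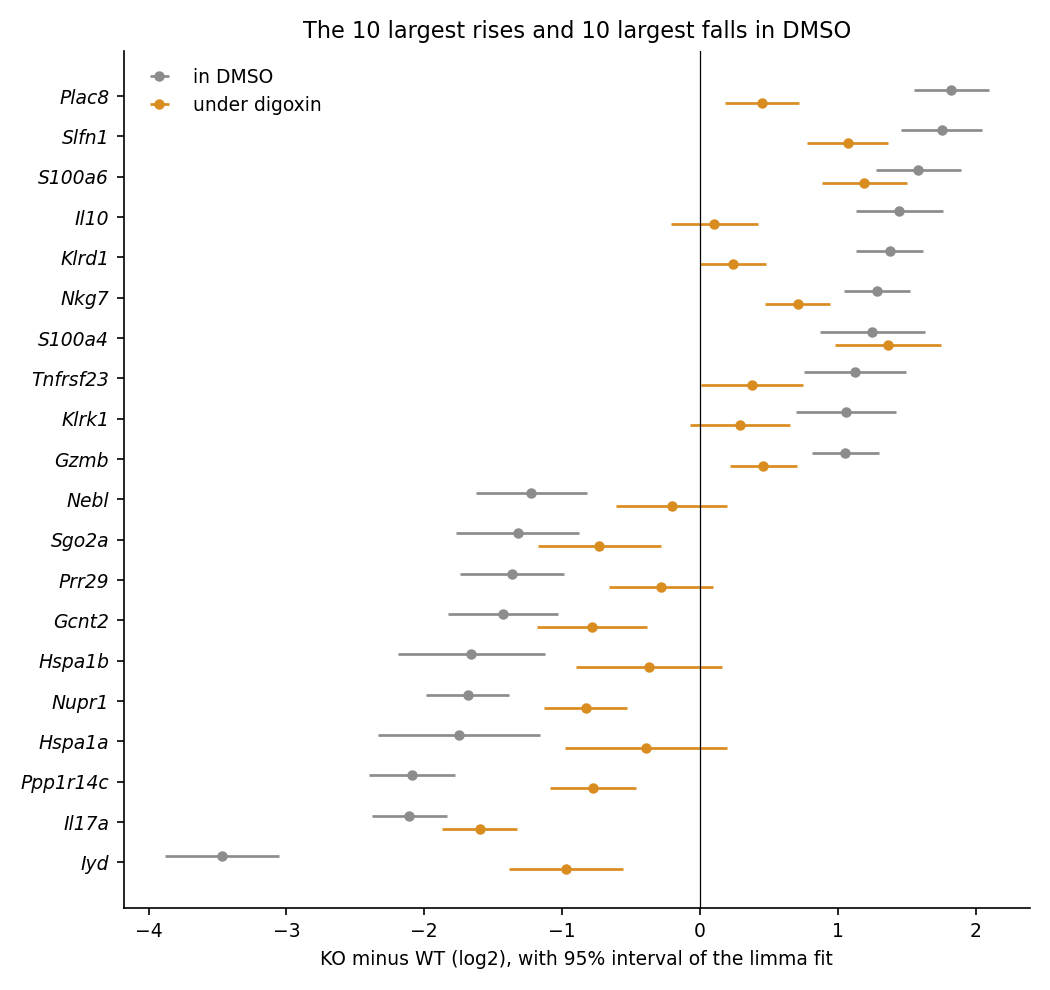
Points give the RORγt-deficient (KO) minus wildtype (WT) difference in log2 for 20 genes called in DMSO, the 10 most increased and the 10 most decreased there, in DMSO (grey) and under digoxin (orange), with the 95% interval of the limma fit. The orange points lie nearer 0 than the grey ones for all genes shown but S100a4, and the digoxin intervals reach 0 or cross it for genes such as Il10, Hspa1a and Nebl.

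Genes of mitosis lay lower in deficient cells under digoxin with few exceptions. Of 22 listed, 21 were measured, and 20 of the 21 had groups apart with deficient cells lower (13.6% of all genes). At an unadjusted p under 0.05, 19 were lower (2.73% of all genes) and none was higher, and none passed adjustment in limma over all genes. The median genotype difference was -0.60 under digoxin and -0.87 in DMSO, where 17 were called lower (0.77% of all genes). Medians over the 21 genes were -0.13 and -0.31 on the wildtype digoxin arrays and -0.85 and -0.79 on the deficient digoxin arrays. Deficient cells in DMSO had medians of -0.89 and -0.85, and so stood at a like level in both treatments, while those of wildtype cells in DMSO were -0.10 and 0.10. In the RNA of a whole culture, fewer dividing cells and less RNA of these genes per cell cannot be told apart. All gene lists described here, including DNA replication, p53 targets and the ATF4 response, were chosen with earlier results of these data known. Counts of their members beside the shares of all genes are therefore only a description.

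Kif20a, a kinesin of the dividing midzone, had values of -0.02 and -0.21 in wildtype and -0.95 and -1.13 in deficient cells under digoxin. Its difference was -0.93 ± 0.13 (adjusted p = 0.118), against -1.02 in DMSO. Bub1, a kinase of the spindle checkpoint, stood at -0.85 ± 0.14 under digoxin and -1.18 in DMSO, and its other probe set at -0.46. Cenpe and Cenpf, proteins of the kinetochore, stood at -0.71 ± 0.11 and -0.76 ± 0.12, and the other probe sets of Cenpf at 0.04 and -0.16. Ccnb2, the mitotic cyclin B2, had values of -0.20 and -0.29 in wildtype and -0.99 and -0.90 in deficient cells, a difference of -0.70 ± 0.12. Mki67, the proliferation marker Ki-67, stood at -0.68 ± 0.14, Aspm, a spindle pole protein, at -0.73 ± 0.12 (its 4 other probe sets between -0.36 and 0.06) and Parpbp at -0.77 ± 0.12. On the probe sets used, the deficient digoxin arrays lay below the wildtype ones for each of these genes. Top2a, the topoisomerase of dividing cells, was the exception at 0.35, on a probe set in the level range of 2 to 4, and its other probe sets stood at -0.67 and -0.45.

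With the variance that follows the level range, 25 of 18193 genes were called under digoxin, 14 lower and 11 higher. Among the 14 were 8 of the 21 measured mitosis genes. Of the 25, 21 were among the 191 called in DMSO (1.05% of all genes). The other alternatives that kept both arrays of each digoxin group called 0 to 2 genes under digoxin.

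The promoters of Ccnb2 and Cenpf are shown because the genes of mitosis lay lower together and share known promoter elements, the cell cycle gene homology region TTTGAA and the CCAAT box CCAAT, both searched on both strands. TTTGAA occurs in 13 of 19 windows of the 18 mitosis genes with a RefSeq window (68.4%). It occurs in 17.9% of all windows and in 13.4% of those of the genes measured. CCAAT occurs in 17 of the 19 (89.5%), in 37.4% of all windows and in 37.4% of those of the genes measured. The Ccnb2 window lies at chr9:70421505-70421804 and that of Cenpf at chr1:189688037-189688336, both on the minus strand of GRCm38.p6 and written in the direction of the gene. Capitals mark both elements. In Ccnb2, TTTGAA begins 167 bases before and 4 bases after the start, and CCAAT begins 87, 54 and 21 bases before it. In Cenpf, TTTGAA begins 2 bases after the start, and CCAAT 132 and 71 bases before it.
Ccnb2: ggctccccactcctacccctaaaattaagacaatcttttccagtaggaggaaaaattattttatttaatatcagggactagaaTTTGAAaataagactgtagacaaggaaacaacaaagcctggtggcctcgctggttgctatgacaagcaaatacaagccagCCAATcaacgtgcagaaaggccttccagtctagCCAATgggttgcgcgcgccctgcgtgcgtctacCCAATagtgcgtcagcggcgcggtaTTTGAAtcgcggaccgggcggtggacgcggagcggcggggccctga
Cenpf: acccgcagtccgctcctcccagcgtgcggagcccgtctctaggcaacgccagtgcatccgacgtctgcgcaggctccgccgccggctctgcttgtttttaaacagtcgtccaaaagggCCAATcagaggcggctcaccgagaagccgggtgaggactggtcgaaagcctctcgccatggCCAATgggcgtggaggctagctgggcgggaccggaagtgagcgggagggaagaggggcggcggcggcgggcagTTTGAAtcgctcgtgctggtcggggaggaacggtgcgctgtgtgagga
No claim on the binding of any factor is made from these letters.

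**Figure D4:**
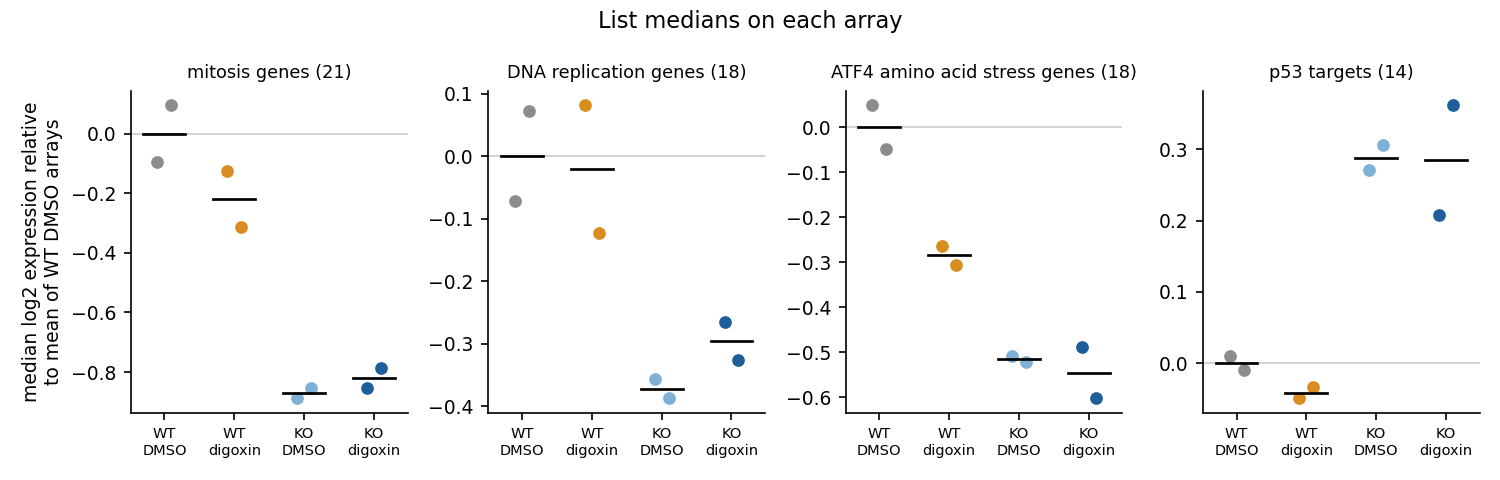
Points give the median log2 value over the measured genes of 4 lists on each array, with mean wildtype (WT) cells in DMSO at 0, with 2 arrays a group and a black line at the group mean; KO is RORγt-deficient. Mitosis medians were -0.13 and -0.31 on the wildtype and -0.85 and -0.79 on the deficient digoxin arrays, and p53 target medians were -0.05 and -0.03 against 0.21 and 0.36.

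Most genes of DNA replication lay lower in deficient cells under digoxin. The 18 genes had a median of -0.26 under digoxin and -0.39 in DMSO, 11 had groups apart with deficient cells lower (13.6% of all genes), and 6 were lower at an unadjusted p under 0.05 (2.73% of all genes). Rrm2, a subunit of ribonucleotide reductase, stood at -0.54 ± 0.13 and Gins2, a helicase subunit, at -0.37 ± 0.11. No member was called in either comparison.

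Targets of p53, which arrest the cell cycle or promote cell death, mostly lay higher in deficient than in wildtype cells under digoxin. Of 14 measured of 15 listed, 8 were higher at an unadjusted p under 0.05 (2.78% of all genes) and none was lower, 12 had groups apart with deficient cells higher (17.4% of all genes), and none was called. The median was 0.29 under digoxin and 0.30 in DMSO. Phlda3, an inhibitor of Akt, had values of -0.03 and -0.18 in wildtype and 0.58 and 0.43 in deficient cells under digoxin, a difference of 0.61 ± 0.11 (adjusted p = 0.193). Zmat3 stood at 0.57 ± 0.11, the cyclin Ccng1 at 0.54 ± 0.11, the death gene Bbc3 at 0.63 ± 0.15 and the cell cycle inhibitor Cdkn1a at 0.45 ± 0.11. The digoxin groups were apart for all 5 genes, with deficient cells higher.

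Genes of the ATF4 response, which supply amino acids under stress, mostly lay lower in deficient than in wildtype cells under digoxin. Of 18 measured, 8 were lower (2.73% of all genes) and 1 higher (2.78%) at an unadjusted p under 0.05, 11 had groups apart with deficient cells lower (13.6%), and none was called. The median was -0.25 under digoxin and -0.53 in DMSO, where 7 were called lower (0.77% of all genes). Nupr1, a stress-induced chromatin protein, had values of -1.15 and -1.24 in wildtype and -2.15 and -1.89 in deficient cells under digoxin. Its difference was -0.83 ± 0.14 (adjusted p = 0.138), against -1.69 in DMSO. Asns, asparagine synthetase, stood at -0.49 ± 0.10, the amino acid transporter Slc7a5 at -0.45 ± 0.11 and the mitochondrial enzyme Shmt2 at -0.37 ± 0.10. Sesn2, a stress-induced sestrin, stood on the other side at 0.33. Gap43, a growth cone protein outside these lists, had values of -1.02 and -1.26 in wildtype and -1.98 and -1.99 in deficient cells, a difference of -0.84 ± 0.13.

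**Figure D5:**
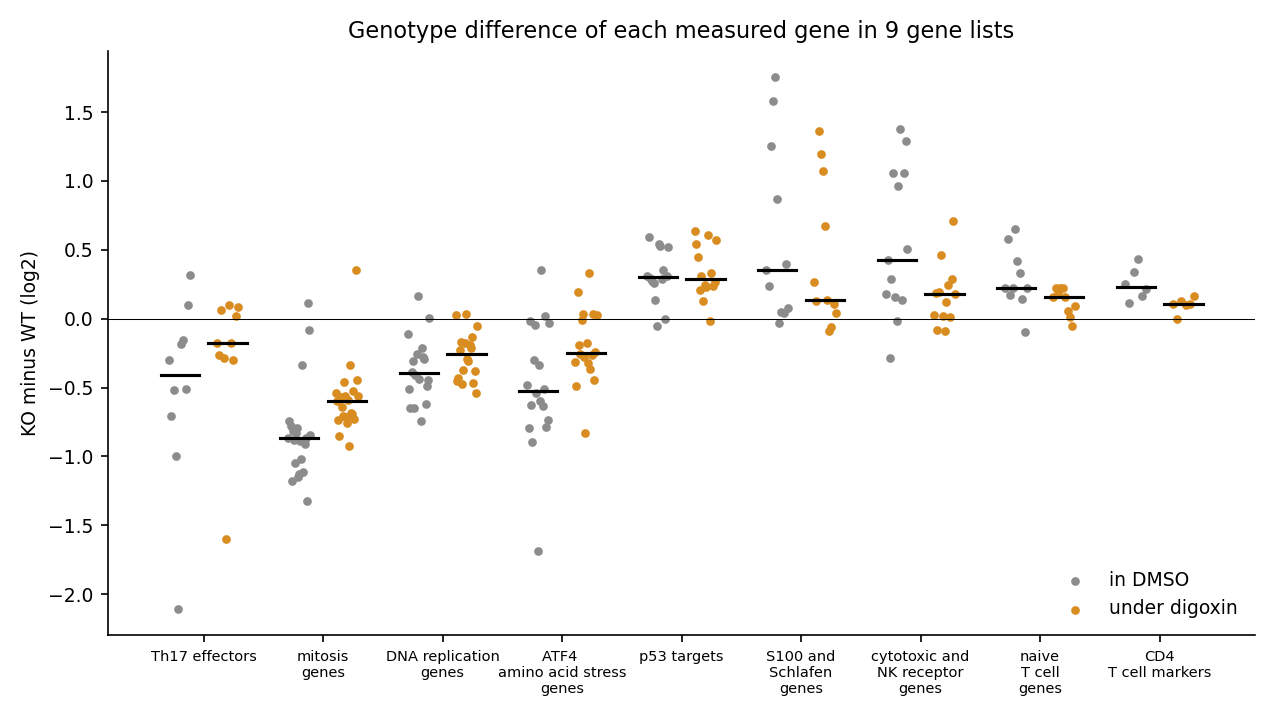
Points give the RORγt-deficient (KO) minus wildtype (WT) difference in log2 of each measured gene in 9 lists, in DMSO (grey) and under digoxin (orange), and black bars give list medians. The mitosis median was -0.87 in DMSO and -0.60 under digoxin, while the p53 target median was 0.30 and 0.29.

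Several genes had large genotype differences in DMSO and smaller ones under digoxin. Iyd, an iodotyrosine deiodinase, had values of -2.59 and -3.09 in wildtype and -3.80 and -3.83 in deficient cells under digoxin. In DMSO its values were -0.17 and 0.17 in wildtype and -3.29 and -3.64 in deficient cells, so wildtype cells in digoxin stood close to deficient cells. The genotype difference of Iyd was -0.97 ± 0.19 under digoxin (adjusted p = 0.199) and -3.47 in DMSO, and these differed by 2.49 (95% interval 1.91 to 3.08; adjusted p = 0.0521 in limma). After quantile normalisation the difference of Iyd under digoxin turned to 0.52, a value set by ranks alone. Iyd was the lowest gene on the wildtype digoxin arrays and next to lowest on the deficient ones, and Il17a the reverse. That step gives such a pair the same size with opposite signs (-0.52 for Il17a), so it cannot decide the direction of Iyd. Ppp1r14c, an inhibitor of protein phosphatase 1, stood at -0.78 ± 0.14 under digoxin and -2.09 in DMSO. Hspa1a and Hspa1b, near-identical copies of the inducible heat shock protein whose probe sets may share signal, stood at -0.39 and -0.37 under digoxin and -1.75 and -1.66 in DMSO. Gcnt2 stood at -0.79 and -1.43 (its other probe sets between -0.61 and -0.01 under digoxin), Prr29 at -0.28 and -1.36, and Nebl at -0.20 and -1.22.

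Several genes higher in deficient cells in DMSO also had smaller differences under digoxin. Plac8 had values of 1.98 and 1.78 in wildtype and 2.30 and 2.36 in deficient cells under digoxin, and 1.89 and 1.76 in deficient cells in DMSO. Its genotype difference was 0.45 ± 0.12 under digoxin and 1.82 in DMSO, and these differed by -1.37 (-1.76 to -0.99; adjusted p = 0.116). Klrd1, which encodes the NK receptor chain CD94, stood at 0.24 ± 0.11 under digoxin and 1.38 in DMSO (difference -1.13, adjusted p = 0.150). Il10, the gene of an anti-inflammatory cytokine, had values of 1.46 and 1.20 in wildtype and 1.46 and 1.41 in deficient cells under digoxin. Its groups overlapped, and the difference of 0.10 ± 0.14 (-0.11 after quantile normalisation) compared with 1.45 in DMSO (difference -1.34, adjusted p = 0.221). The differences between the genotype differences of these genes did not pass adjustment, and the genes were chosen by their size in DMSO.

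Of the cytotoxic and NK receptor genes, 13 of 14 were measured, with a median of 0.18 under digoxin and 0.43 in DMSO. Under digoxin 3 were higher (2.78% of all genes) and none lower at an unadjusted p under 0.05, and 6 had groups apart with deficient cells higher (17.4%). Gzmb, granzyme B, stood at 0.46 ± 0.11 and Klrk1, the receptor NKG2D, at 0.29 ± 0.16, against 1.05 and 1.06 in DMSO. The 5 measured NK cell markers stood in the lowest level range on these arrays, with list medians of 0.07 and 0.31 on the wildtype and 0.18 and 0.25 on the deficient digoxin arrays. These ranges overlap, and the part of such cells in the result was not tested. The 9 measured genes of Il10 and coexpressed inhibitory receptors had a median of 0.11 under digoxin, with Lag3, an inhibitory receptor, at 0.37 ± 0.11.

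Genes of the Na,K-ATPase and of cation transport showed no called genotype difference. Of 12 listed, 8 were measured. Their median was -0.02, they ranged from -0.29 to 0.19, and none had an unadjusted p under 0.05 (5.51% of all genes). Heat shock genes (11, median -0.01), sterol synthesis genes (10, -0.01), glycolysis and hypoxia genes (12, -0.01) and ribosome biogenesis genes (15, -0.03) likewise had no member at that threshold. In lists this short, an absence of members at that threshold is near the share over all genes. The median was 0.16 for 10 genes of naive T cells and 0.10 for 14 activation genes. The 12 interferon-stimulated genes stood at a median of 0.03, with Zbp1, a sensor of nucleic acids, at 0.46 ± 0.12 and the GTPase Gbp2 at 0.35 ± 0.11. Of the 11 TGF-beta genes, Smad2 stood at -0.41, but at 0.08 on its other probe set, and Tgif1 at -0.26.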

How the data were processed

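RMA made the expression values, per the submitters' processing notes, and the series' design text names GeneSpring GX 11.5. The deposited log2 values cover 45101 probe sets, and the wildtype DMSO arrays of each summed to 0 within 1e-06, a centring that no label records and that removes absolute levels. Of these probe sets, 34958 had 1 gene symbol, 932 several and 9211 none. The 64 control probe sets were left out, and 34741 of the 34945 used matched RefSeq (GRCm38.p6). Where a gene had several probe sets (9010 genes), the first by suffix order, from _at over _a_at and _s_at to _x_at, and then by identifier was used. The numeric precision of the values gave a range for each gene's lowest array level: 2 to 4 for 5658 genes (31.1%), 4 to 8 for 8729 (48.0%) and 8 or above for 3805 (20.9%).

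Group means over all 8 arrays were fitted with limma 3.58.1 in R 4.3.3 (4 residual and 5.8 prior degrees of freedom). The median standard error of the genotype difference under digoxin was 0.13. Tests were two-sided, with Benjamini-Hochberg adjustment over 18193 genes and a threshold of 0.05. The script was tested on simulated data. The number of arrays limits the precision.

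Named genes were the called genes plus up to 10 per direction by smallest p, the 10 largest rises and falls called in DMSO, the members of a list with the smallest adjusted p (up to 4 a list), and fixed T helper genes. Clone and locus numbers were not named. Some further genes were named after their values were seen. Members and lists were chosen with earlier results of these data known, so counts of list members are only a description. The alternatives tried are given in the closing section.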

Additional observations from a re-analysis of the deposited data

Results flagged for a closer look

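Among the genes named, 8 had digoxin arrays of the deficient cells wholly on one side of the wildtype arrays and DMSO arrays wholly on the other side. Over all genes 553 of 18193 (3.04%) did so. Adh4 and Gpr15 were named for their opposite signs. In limma the difference between the genotype differences passed adjustment for none of the 8 (at an unadjusted p under 0.05 for 5: Adh4, Gpr15, Eomes, Arntl and Fdft1). Adh4, an alcohol dehydrogenase, stood at 0.18 under digoxin and -0.65 in DMSO, a difference of 0.83. Gpr15, a homing receptor of T cells, stood at -0.12 and 0.73, a difference of -0.85. Eomes, a T-box factor of cytotoxic cells, stood at -0.29 under digoxin and 0.24 in DMSO, a difference of -0.53, and its other probe set at -0.01 and -0.04. Arntl, the clock factor BMAL1, stood at 0.36 and -0.19, a difference of 0.55, and its other probe set at 0.35 and -0.28. Fdft1, squalene synthase, stood at -0.12 and 0.42, a difference of -0.54, and its 3 other probe sets stood at -0.02, 0.23 and 0.04 under digoxin and at -0.02, 0.12 and 0.14 in DMSO. The ribosome biogenesis gene Rrp9 stood at 0.12 and -0.08. The B cell factor Ebf1 stood at -0.16 and 0.13 and Il1r1 at 0.10 and -0.19.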

How the results depend on the processing

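Under digoxin Il17a was called alone in the fit of the compared groups only (adjusted p = 0.0354), with all probe sets, with array medians subtracted, with the level filter, with array weights and with robust variances. Averaging probe sets called 2 genes, 2 of them called in DMSO, quantile normalisation 0 and 0, and the variance trend 25 and 24. Leaving out 1 array gave 0 to 2 genes, and 0 to 2 that were also called in DMSO. In DMSO the count was 95 with the compared groups only, 3 after quantile normalisation, and 17 to 56 without 1 array. The difference of the genotype differences was called for 1 gene with averaged probe sets, after quantile normalisation and with array weights (Iyd each time), for 2 with the variance trend (Iyd and Klrd1), and for 0 to 1 without 1 array. It could not be fitted on the compared groups alone. The share of genes called in DMSO with the same sign and no overlap under digoxin was 66.7% after quantile normalisation (2 of 3 genes), and 83.9% to 95.6% without 1 array. Quantile normalisation of centred values makes the distribution of values, the most extreme ones included, equal on all arrays, by its construction. It widens the wildtype DMSO arrays, whose SD over genes was 0.09 before it, against 0.17 to 0.28 on the others. No called value changed sign. Of the genotype differences of named genes under these alternatives, 599 kept their sign and their side of the threshold, 17 passed it newly, 2 no longer passed it (both of Il17a) and 23 that were never called changed sign.

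The titles number the biological replicates without saying that a number marks a shared batch. Deviations of same-numbered arrays correlated at 0.33 to 0.45 among the wildtype digoxin, deficient digoxin and deficient DMSO groups, and at -0.24 to -0.14 between the wildtype DMSO group and each of these. As the correlations were not all positive and the labels are silent, the numbers were not taken as a pairing. With the replicate block, 2 genes were called under digoxin (Il17a, adjusted p = 0.00319, and S100a6, 0.0316), both also called in DMSO, where 181 were called, and the difference of differences gave 0.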

Other observations

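Clock genes had a median genotype difference of 0.00 under digoxin over 16 members. At an unadjusted p under 0.05, 1 was higher (2.78% of all genes) and 2 were lower (2.73%), and none was called. Nr1d2, a nuclear receptor that represses clock genes, had values of -0.67 and -0.71 in wildtype and -0.89 and -1.10 in deficient cells under digoxin, a difference of -0.30 ± 0.11, against -0.70 in DMSO. Its other probe set stood at -0.06 and -0.50. All 4 digoxin arrays lay below the wildtype DMSO arrays. Of the naive T cell genes, Ccr7, the lymph node homing receptor, stood at 0.22 ± 0.10 under digoxin and 0.58 in DMSO, and Igfbp4 at 0.22 ± 0.11 and 0.65.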
